A study of Mus musculus with 21 samples.

Results

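Deleting Iα in CH12F3 cells was compared with the line it was made from, over 12 of the 21 libraries of the series, 6 per group. CH12F3 is a mouse B lymphoma line that switches its antibody class from IgM to IgA in culture. In the starting line, labelled CH12F3NC-delta and called NCdel here, the DNA from Sμ to Sα is gone from the non-coding IgH allele. The second group, labelled I-alpha-delta and called Iadel, carries that same deletion and in addition lacks Iα. The loss of Iα itself was not checked here, since the junction tables do not read it. All cells of both groups were stimulated for 72 h with IL4, TGF-β and anti-CD40. Whether each line is a single clone, and whether the libraries of a group came from separate cultures, is not given in the sources used here, so p-values measure the spread between these libraries, which may be technical. The members were taken by genotype label, and each line of a library's junction table was counted as 1 junction. Of 4614 lines in Iadel library 4, 3075 carried read names that also occur in libraries 5 or 6 and were dropped, which left 1539.

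Class switch recombination replaces the constant region of an antibody by joining a break in the donor switch region Sμ to a break in a downstream acceptor switch region, with loss of the DNA between them. The breaks start from cytosines that the enzyme AID deaminates in transcribed switch repeats, and AGCT is a preferred AID motif. Each acceptor is transcribed from its own upstream I promoter, and Iα is that promoter and first exon for Sα. IgH lies on the minus strand of chromosome 12, and the constant genes follow each other from μ through γ3, γ1, γ2b, γ2a and ε to α.

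The assay, CSR-HTGTS-seq, reads outward from a fixed primer in the bait, here the 5′ end of Sμ, into the sequence joined to it, the prey. A prey in the same orientation as the bait is called deletional within IgH, and one in the opposite orientation inversional. Bases that fit both sides of a join are an overlap, or microhomology. Bases that fit neither are an insertion. NCdel held 11564 junctions (1623 to 2412 per library) and Iadel 14644 (1315 to 3513). Shares are percentages of all junctions of a library, and a group is given by its mean ± SD. Intervals and limits for counts of 0 cover counting error only, since molecular identifiers are not stated. The read names hold sequencing runs. Run 490 holds NCdel libraries 1 to 3 and Iadel libraries 4 to 6, and is the only run with both groups. Between these, 3 against 3, an exact permutation test cannot go below p = 0.1. NCdel library 4 was in run 371, NCdel libraries 5 and 6 in run 451 and Iadel libraries 1 to 3 in run 482. The tests over all 12 libraries treat each library as independent, though libraries of a run lay close together in several shares. Their p-values therefore take no account of run.

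The sequences below, printed 5′ to 3′, show the bait and examples of joins to 3 acceptors, each from the group in which that acceptor had more joins. The bait lies at chr12:114664780-114664909 (mm9, minus strand). Its 2 AGCT motifs, in capitals, are at bases 64 to 67 and 85 to 88 from the primer end.
Bait: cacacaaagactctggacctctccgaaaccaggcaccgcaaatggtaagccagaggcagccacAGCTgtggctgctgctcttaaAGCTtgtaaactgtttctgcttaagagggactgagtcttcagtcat
The next 3 lines are single reads across a join, taken at the position with the most junctions inside that acceptor. The first 40 bases are bait and the capitals mark the first 10 prey bases. They are from α in NCdel, γ3 in Iadel and γ2b in Iadel, where 15, 7 and 3 junctions shared the position. The prey shown lie at chr12:114501037-114501096, chr12:114602431-114602488 and chr12:114550721-114550780 (mm9, minus strand).
Alpha join in NCdel: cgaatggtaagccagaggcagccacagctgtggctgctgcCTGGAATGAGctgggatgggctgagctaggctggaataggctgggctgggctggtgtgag
Gamma3 join in Iadel: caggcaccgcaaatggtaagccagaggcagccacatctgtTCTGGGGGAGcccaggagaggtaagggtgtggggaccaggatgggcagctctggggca
Gamma2b join in Iadel: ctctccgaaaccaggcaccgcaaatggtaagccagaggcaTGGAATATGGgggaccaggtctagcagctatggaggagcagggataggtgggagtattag
All 3 are direct joins, with neither overlap nor insertion. The following γ3 read of Iadel shows an overlap, in capitals, of 4 bases that fit both bait and prey (prey at chr12:114600855-114600918, minus strand).
Gamma3 join with overlap: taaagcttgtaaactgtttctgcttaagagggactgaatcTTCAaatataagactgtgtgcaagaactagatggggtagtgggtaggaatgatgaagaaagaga

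Without Iα, joins to α were nearly absent and joins to γ3, γ2b and γ2a took larger shares. All acceptor regions together, with the stretch between Sγ2a and Sε, took 44.1% ± 7.65 in NCdel and 11.3% ± 4.06 in Iadel. Shares of a library are parts of 1 whole, so a smaller α share by itself raises the others. How much of each rise comes from this was not tested. The share of α lay between 34.0% and 52.3% in the NCdel libraries, with a median of 41.3%. In Iadel it lay between 0% and 0.357%, with a median of 0.0671%, and library 4 held 0 of 1539 junctions, which allows up to 0.195%. Of the 17 α junctions of Iadel, 11 were in library 3. The share of γ3 had a lowest, median and highest value of 0.159%, 0.309% and 0.993% in NCdel and 4.89%, 7.50% and 11.0% in Iadel. For γ2b these values were 0.106%, 0.124% and 0.265% in NCdel and 1.10%, 2.05% and 2.78% in Iadel. For γ2a they were 0%, 0% and 0.0946%, from 3 junctions in all, and 0.681%, 0.896% and 1.62%, from 130. These 4 regions did not overlap between the groups (adjusted exact permutation p = 0.00541 each). They make up 40.0% of the 10 regions tested, and with the region upstream of the bait 50.0% of the regions were called. The upstream share was 1.5% ± 0.288 and 1.95% ± 0.299 (adjusted exact permutation p = 0.0476), and it did not pass without any 1 of 8 of the 12 libraries. The γ levels in Iadel differed by run: γ3 was at 4.89% to 5.32% in the libraries of run 482 and at 9.68% to 11.0% in those of run 490. Within run 490 the difference between the groups was 9.97 percentage points for γ3, 2.43 for γ2b, 1.22 for γ2a and -40.4 for α.

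**Figure D1:**
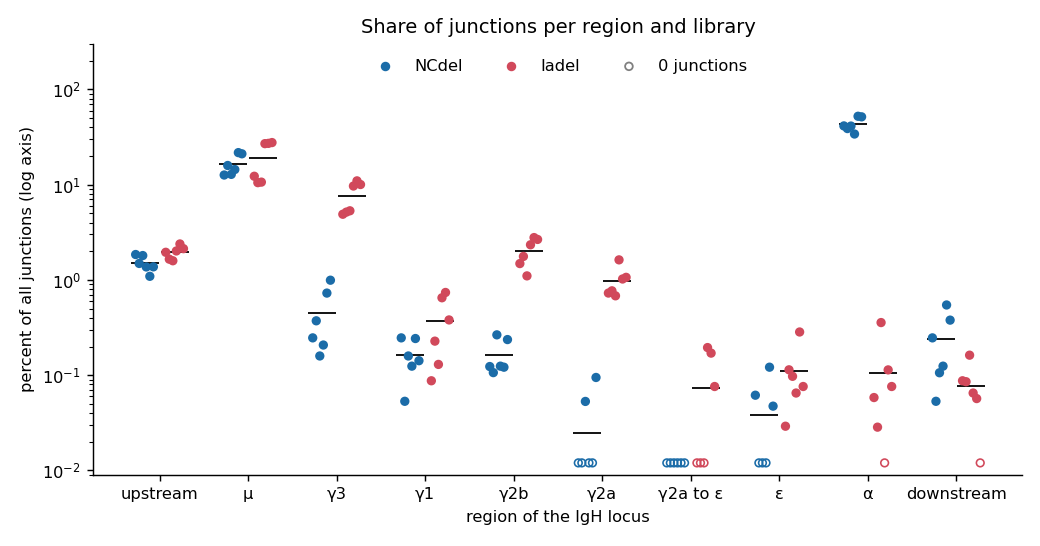
Share of junctions in each region of the IgH locus, as percent of all junctions on a log axis, with 1 point per library, open points at the foot for libraries with 0 junctions and a bar at the group mean. The 6 Iadel libraries lie above all 6 NCdel libraries in γ3, γ2b and γ2a and below them in α.

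μ, γ1, ε, the stretch between Sγ2a and Sε and the region downstream of α did not pass the test. The μ share was 16.4% ± 4.03 in NCdel and 19.2% ± 8.86 in Iadel (adjusted exact permutation p = 0.476), and it differed by run. In run 490 it was 12.6% to 15.9% in NCdel and 27.0% to 27.7% in Iadel. The Iadel libraries of run 482 held 10.5% to 12.3%. γ1, between γ3 and γ2b, had 18 junctions in NCdel and 43 in Iadel, with medians of 0.150% and 0.304% and overlapping groups (adjusted exact permutation p = 0.146). In run 490 its share was 0.0532% to 0.246% in NCdel and 0.380% to 0.739% in Iadel. In the Iadel libraries of run 482 it was 0.0874% to 0.228%. ε had 4 and 15 junctions (adjusted exact permutation p = 0.118). The downstream share was 0.242% ± 0.189 in NCdel and 0.0761% ± 0.0527 in Iadel (adjusted exact permutation p = 0.0938). Without NCdel library 2 the downstream difference was called, at -0.204 percentage points. The stretch between Sγ2a and Sε held 0 junctions in NCdel, which allows up to 0.0259%, and 7 in Iadel. Of those 7, 6 shared the position 114521585 and all came from the 3 Iadel libraries of run 490. That run also holds 3 libraries labelled Ialpha-delta-i3CBEc, Iadel cells that carry inserted CTCF-binding elements downstream of Cγ2a. Those held 580 of their 5152 junctions in the stretch, with 0 at that position and 9 within 10 bases of it. Whether reads passed between libraries of the run was not tested.

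Among the acceptors other than α, the γ1 part was smaller in Iadel. These acceptors held 10 to 32 junctions per library in NCdel, 96 in all, and 188 to 282 in Iadel, 1449 in all. γ1 made up 36.4%, 10.0%, 25.0%, 27.3%, 20% and 9.38% of them in NCdel libraries 1 to 6, and 1.21%, 2.84%, 1.77%, 4.46%, 4.63% and 2.66% in Iadel libraries 1 to 6. The groups did not overlap, with means of 21.3% ± 10.5 and 2.93% ± 1.39 (adjusted exact permutation p = 0.0108). This is 1 of 5 parts without overlap (20%), and 3 of 5 (60.0%) were called. The γ1 part rests on 1 to 4 junctions in each NCdel library. Most of these lay outside the Sγ1 block: its kilobases at 114574000 and 114575000 held 6 and 0 of the 18 in NCdel. They held 13 and 11 of the 43 in Iadel. As a share of all junctions γ1 was not lower in Iadel, with means of 0.161% ± 0.0739 in NCdel and 0.369% ± 0.273 in Iadel.

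The γ3 part had means of 50.4% ± 17.7 in NCdel and 68.3% ± 2.91 in Iadel (adjusted exact permutation p = 0.0433). It no longer passed without NCdel library 3 or without any 1 Iadel library, with an adjusted p of up to 0.126. The part of γ2a and the stretch beyond it was 2.43% ± 3.82 and 9.48% ± 1.78 (adjusted exact permutation p = 0.0162). Without the stretch, an alternative chosen after its shared position was seen, γ2a alone made up 2.43% ± 3.82 and 9.04% ± 1.77 (adjusted exact permutation p = 0.0216). γ2b made up 22.1% ± 11.1 and 18.3% ± 2.65 (adjusted exact permutation p = 0.513), and ε 3.70% ± 4.69 and 0.984% ± 0.595 (0.352). The γ3 part of the Iadel libraries ranged from 64.2% to 72.6% over both of its runs.

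A larger part of the γ3 joins was deletional in Iadel than in NCdel. The deletional γ3 share was 0.360% ± 0.281 in NCdel and 7.29% ± 2.80 in Iadel, 20.2-fold higher, and the inversional share was 0.0909% ± 0.113 and 0.385% ± 0.0877, 4.23-fold higher, from 10 and 54 junctions. NCdel library 5 held 5 of those 10, and without it the inversional share of NCdel was 0.0485% and that of Iadel 7.94-fold higher. With all libraries both shares passed the test (adjusted exact permutation p of 0.00866 and 0.0144). Of the 20 orientation-split shares tested, 35.0% were called and 25.0% did not overlap. As a percent of a library's γ3 joins, the deletional ones were 71.4%, 80.0%, 58.3% and 90.5% in NCdel libraries 2, 4, 5 and 6, which alone hold at least 5 γ3 junctions. In Iadel they were 91.7%, 95.6%, 92.1%, 95.3%, 96.9% and 95.5%. Among these libraries the groups did not overlap (75.1% ± 13.6, n = 4, and 94.5% ± 2.11, n = 6, adjusted exact permutation p = 0.0143), 33.3% of the 3 regions tested. NCdel libraries 1 and 3, left out by the minimum of 5, held 4 and 3 γ3 junctions, all deletional. With these 2 libraries the groups overlap, and a test that includes them was not run. Pooled over libraries, 42 of 52 γ3 joins were deletional in NCdel (80.8%, 95% Wilson interval 68.1 to 89.2) and 933 of 987 in Iadel (94.5%, 92.9 to 95.8). With at least 10 junctions per library, 2 NCdel libraries remain and no test was made.

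In the other regions tested, no difference in orientation was called. In μ, the deletional part was 89.4% ± 2.73 in NCdel and 90.5% ± 2.02 in Iadel (adjusted exact permutation p = 0.435). Upstream of the bait, where all junctions lay within 2989 bases of it, the part in the bait's own orientation was 82.1% ± 5.44 and 87.1% ± 2.39 (adjusted exact permutation p = 0.0844). Without NCdel library 2 that difference was called, at 6.48 percentage points. The α joins of NCdel were 97.4% ± 0.837 deletional, with 130 inversional of 4953. γ2b and γ2a joins of Iadel were 97.5% ± 2.97 and 97.7% ± 2.54 deletional. Of the 17 joins left in the α region in Iadel, 15 were deletional.

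**Figure D2:**
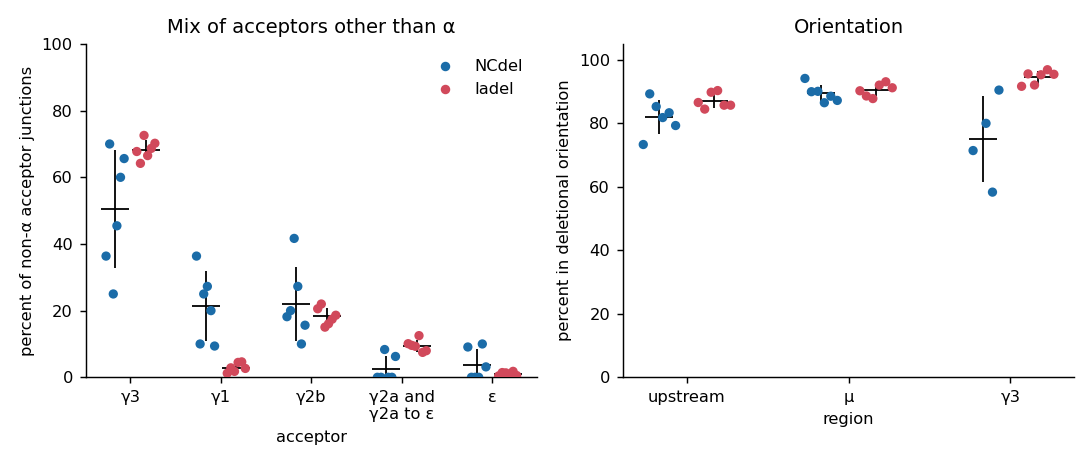
Left, percent of the junctions in acceptors other than α that went to each acceptor; right, percent of a region's junctions in the deletional orientation (for upstream, the bait's own), with 1 point per library and the mean ± SD. The γ1 part of all 6 Iadel libraries lies below that of every NCdel library, and the γ3 orientation is given for the 4 NCdel libraries with at least 5 junctions.

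Positions inside the switch regions were taken from the edge, nearest the bait, of the AGCT-rich block that marks each region. Sμ (chr12:114661000-114663999, mm9) held 7.81 AGCT motifs per 100 bases read, Sγ3 (chr12:114599000-114603999) 3.18 and Sα (chr12:114497000-114502999) 3.68. In μ, the Iadel junctions lay farther from the bait at the median. The median distance from the edge was 372 to 590 bases in the NCdel libraries, with a median of 454, and 556 to 632 in Iadel, with a median of 606. It counts all μ junctions, also those between bait and block, which have negative distances. The pooled quartiles were -290 and 877 bases in NCdel and 18.5 and 1075 in Iadel. Depth among the junctions inside the block alone was not tested. The groups overlapped, and their means were 468 ± 77.7 and 600.5 ± 25.9 bases (adjusted exact permutation p = 0.0260), the only call among 4 position tests (25.0%). Within run 490 the difference was 156 bases. The part of μ junctions inside the block was 69.3% ± 4.26 and 73.8% ± 3.07 (adjusted exact permutation p = 0.126). The most used μ site of NCdel, at 114663584, took 28 of 1898 junctions and occurred in all 6 libraries. That of Iadel, at 114663139, took 14 of 2375.

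Within γ3 the median distance was 1750 ± 218 bases in the 4 NCdel libraries with at least 5 junctions and 1586 ± 41.5 in Iadel (adjusted exact permutation p = 0.146). Without NCdel library 6 the difference was called, at -252 bases. In Iadel the quartiles of the γ3 joins lay at 1098 and 2099 bases from the edge, and the 987 joins fell on 749 sites. The α joins of NCdel had a median distance of 2133 ± 53.3 bases and fell on 2301 sites for 4953 joins. Of the 17 α joins of Iadel, 2 lay in the kilobase at 114492000 and 1 in that at 114493000. Both kilobases are beyond the Sα block and held 0 junctions in NCdel. γ2b joins of Iadel formed 2 groups: 121 of 267 lay in the kilobase at 114551000 and 54 in that at 114550000, while the kilobase at 114549000 held 20 and that at 114548000 held 53. The 130 γ2a joins of Iadel were spread over 126 sites, with a median distance of 2548 ± 372 bases.

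**Figure D3:**
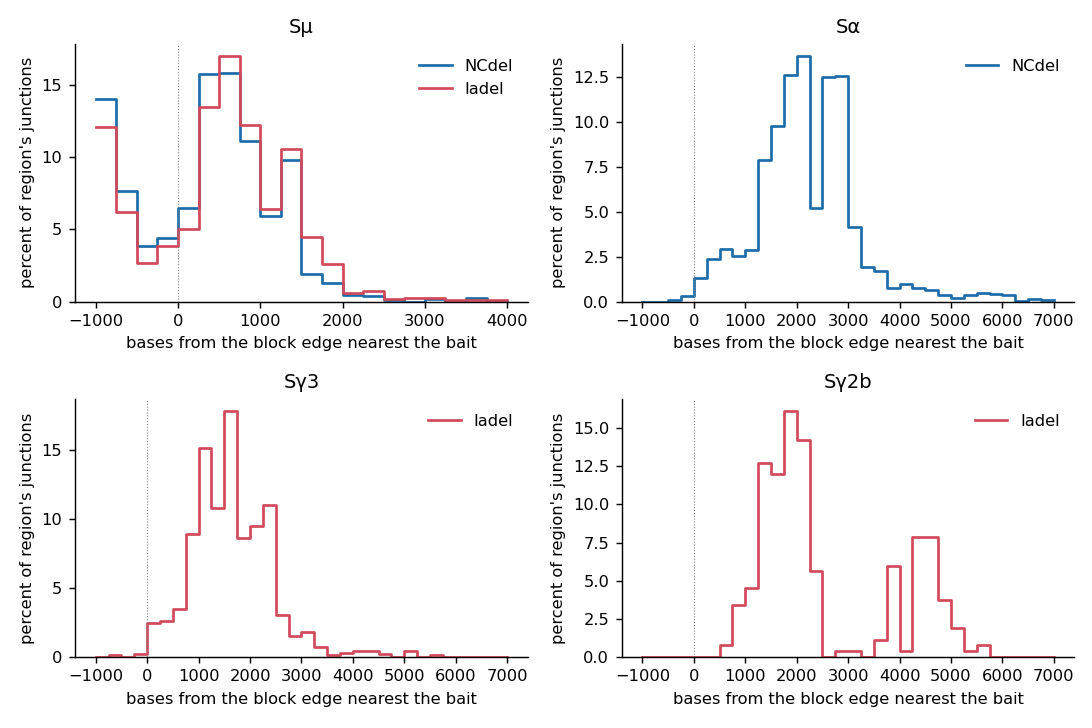
Positions of junctions in Sμ, Sα, Sγ3 and Sγ2b, as percent of the region's pooled junctions in steps of 250 bases, against the distance from the block edge nearest the bait (dotted line). Groups with at least 100 junctions in a region are drawn. γ2b shows a dip between its 2 groups of joins.

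By kilobase, limma called 23 of 36 bins with at least 10 junctions (63.9%), 15 higher (41.7%) and 8 lower (22.2%) in Iadel. All 8 tested bins of α were lower and all 5 of γ3 were higher, with 5 of 6 in γ2b, 4 of 5 in γ2a and 1 of 3 in γ1. None of the 5 bins of μ was called by limma. The α bins passed the minimum through NCdel and most γ bins through Iadel, so their direction was largely fixed by the filter. The median log2 fold change was 4.12 over the γ3 bins, 2.63 over γ2b and 0.50 over μ, and 0.84 over all bins, some of which hold 0 junctions in 1 group and depend on the pseudocount. The γ3 bin at 114602000 held 31 junctions in NCdel and 518 in Iadel, with a log2 fold change of 4.40 (SE 0.62; limma adjusted p = 4.59e-06). Those at 114601000 and 114603000 had 4.27 and 4.12. In α, the bin at 114500000 held 2172 and 9 junctions (-8.02) and that at 114501000 held 1638 and 3. The bins at 114502000 and 114499000 held 451 and 424 junctions in NCdel and 1 each in Iadel. Those at 114498000, 114497000 and 114496000 held 134, 73 and 32 in NCdel and 0 in Iadel.

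No class of overlap passed the test between the groups. Of the joins to acceptor regions, which are nearly all α in NCdel and mostly γ3 in Iadel, insertions made up 21.3% ± 1.31 in NCdel and 20.6% ± 2.64 in Iadel. Direct joins made up 21.7% ± 1.91 and 22.7% ± 2.56, and overlaps of 1 to 2 bases 34.6% ± 1.55 and 36.7% ± 3.05. Overlaps of 3 or more bases had a lowest, median and highest value of 20.9%, 22.2% and 24.5% in NCdel and 17.4%, 20.1% and 22.3% in Iadel. Their difference of -2.42 percentage points had an unadjusted exact permutation p of 0.0325 and an adjusted p of 0.195. There was no call among 12 tests over acceptors, μ and other chromosomes (0.0%) by the exact permutation test, and 2 had an unadjusted p under 0.05. The other was the insertions of joins to other chromosomes, at 10.5% ± 2.93 and 7.92% ± 0.921 (adjusted exact permutation p = 0.195).

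In both groups, joins to acceptors and to other chromosomes had different values, given here as a description. A single inserted base was found in 9.61% ± 0.589 (NCdel) and 7.58% ± 3.20 (Iadel) of acceptor joins and in 0.758% ± 0.122 and 0.658% ± 0.312 of joins to other chromosomes. Overlaps of 6 or more bases made up 1.47% ± 0.616 and 2.56% ± 0.443 of acceptor joins and 12.3% ± 2.47 and 13.3% ± 1.68 of joins to other chromosomes. In μ, 31.0% ± 2.04 and 32.8% ± 2.71 of the joins carried an insertion.

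**Figure D4:**
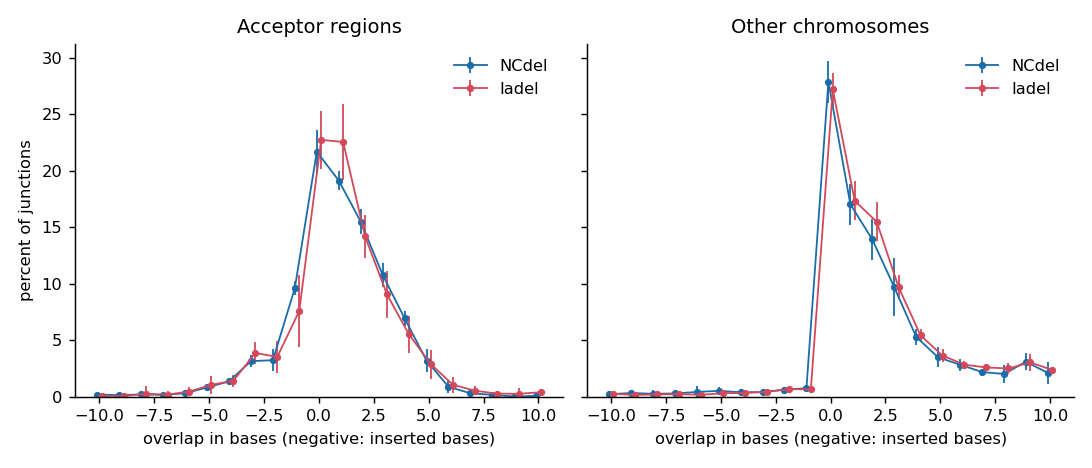
Percent of junctions against the length of the overlap in bases, with inserted bases as negative values, for joins to acceptor regions and to other chromosomes (points, mean over 6 libraries; bars, SD). Single inserted bases are common in acceptor joins of both groups and rare in joins to other chromosomes.

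Joins to other chromosomes took a larger share of the Iadel libraries. The share was 40.8%, 40.9%, 40.6%, 46.6%, 21.3% and 22.6% in NCdel libraries 1 to 6 and 74.5%, 75.8%, 75.3%, 53.2%, 51.2% and 52.7% in Iadel libraries 1 to 6. The groups did not overlap, with means of 35.5% ± 10.7 and 63.8% ± 12.5 (exact permutation p = 0.00216). The libraries fell together by run: NCdel was at 21.3% to 22.6% in run 451 and at 40.6% to 40.9% in run 490, and Iadel at 51.2% to 53.2% in run 490 and at 74.5% to 75.8% in run 482. Within run 490 the difference was 11.6 percentage points. Of these joins 28.1% in NCdel and 28.3% in Iadel end in the 5 bait bases nearest the primer, against 2.88% and 2.77% of acceptor joins, and whether some are mispriming and not junctions was not tested. Without all joins that end there, an alternative chosen after the bait ends were seen, the shares were 29.5% and 57.8%, with a difference of 28.3 percentage points (exact permutation p = 0.00216). Counted among the junctions outside the acceptors, the shares were 62.1% and 71.5%, and the difference of 9.39 percentage points did not pass the test (exact permutation p = 0.182). Within run 490 the order was reversed on this measure, with each Iadel library below each NCdel library. This reversal was not tested. The prey of the joins to other chromosomes were split between the strands, with 50.5% ± 2.46 and 50.7% ± 2.01 on the plus strand. Joins to chromosome 12 beyond the IgH window took 2.30% ± 0.549 and 3.65% ± 0.602 of all junctions.

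The distribution over chromosomes was not called different. Of the 20 chromosomes tested as parts of these joins, 0 (0.0%) were called by the exact permutation test and 0 had an unadjusted p under 0.05, the lowest being 0.0628 for chromosome 11. Chromosome 2 took 7.39% ± 2.61 in NCdel and 7.99% ± 1.07 in Iadel, chromosome 1 took 7.35% ± 0.791 and 7.41% ± 0.539, and chromosome 14 took 7.07% ± 1.27 and 7.85% ± 1.31. Chromosome 11 took 7.26% ± 0.647 and 6.40% ± 0.771, chromosome 5 took 6.18% ± 0.763 and 5.58% ± 0.660, and chromosome 4 took 6.16% ± 0.810 and 5.31% ± 0.948. The means of the other chromosomes except Y lay between 2.35% and 5.87%, and Y held 1 junction in NCdel and 2 in Iadel. The chromosome 2 part was 3.70% to 4.39% in the NCdel libraries of run 451 and 8.62% to 9.42% in the other 4. In steps of 20 Mb along the chromosome these 2 libraries held 0 to 5 junctions each.

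The bait side of the joins is described next, for both groups. Only joins whose bait ends between bases 31 and 130 are in the tables. Of the joins to other chromosomes, 28.1% ± 1.69 in NCdel and 28.3% ± 1.74 in Iadel ended in the 5 bases nearest the primer, bases 31 to 35. For acceptor joins this was 2.88% ± 0.400 and 2.77% ± 0.891, and for μ joins 3.40% ± 1.39 and 3.35% ± 1.14. The most used end in joins to other chromosomes was base 34, with 11.2% ± 0.875 and 11.6% ± 1.71. In acceptor joins it was base 64, the first base of the AGCT motif shown in the bait, with 5.64% ± 0.582 and 5.87% ± 2.56. Over the 100 bait positions, the profiles of the groups correlated with a Pearson r of 0.992 for other chromosomes and 0.913 for acceptors, and those of acceptors and other chromosomes with 0.188 in NCdel and 0.128 in Iadel. These are correlations across positions of the same bait, which are not independent. The library medians of the bait end over all junctions averaged base 62.5 ± 1.97 in NCdel and base 58.5 ± 2.07 in Iadel (exact permutation p = 0.0173). Without the joins that end in bases 31 to 35, an alternative chosen after this profile was seen, the difference was -1 base and was not called.

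**Figure D5:**
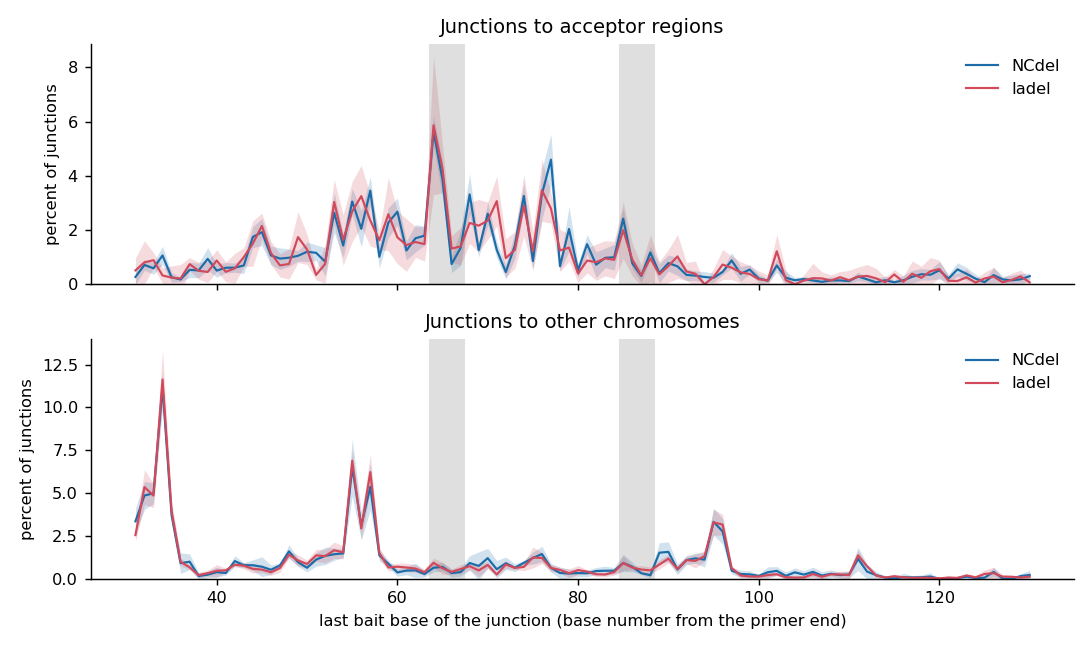
Percent of junctions that end at each bait base, numbered from the primer end, for joins to acceptor regions and to other chromosomes (line, mean over 6 libraries; band, SD; grey, the 2 AGCT motifs). Joins to other chromosomes peak at base 34 in both groups and acceptor joins at base 64.

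AGCT lay within the first 10 prey bases in 49.7% and 52.7% of μ joins with at least 50 prey bases, in NCdel and Iadel. It did so in 26.1% of α joins in NCdel and in 21.6% of γ3, 20.5% of γ2b and 15.4% of γ2a joins in Iadel. In bases 41 to 50 of the same reads the values were 46.3% and 50.7% for μ, 23.9% for α, 29.6% for γ3, 24.2% for γ2b and 16.3% for γ2a. For γ3 and γ2b, 0 of 6 Iadel libraries had the higher value at the join, and for γ2a 3 of 6. For α this held in 5 of 6 NCdel libraries, for μ in 5 of 6 of each group and for other chromosomes in 6 of 6 of each group. For other chromosomes the first 10 bases held it in 5.79% of joins in both groups, against 3.97% and 3.80% farther in.

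A few places on other chromosomes held junctions in many libraries, and whether these arose from separate breaks was not tested. The 100-kb bin of chromosome 14 from 32400000 held 165 junctions, 52 in NCdel and 113 in Iadel, and at least 3 in each of the 12 libraries. Of these, 160 had plus-strand prey, 163 lay within 500 bases of position 32427222, and 56 were at that position itself, 48 of them with an insertion. As a part of the joins to other chromosomes the bin took 1.48% ± 0.971 in NCdel and 1.57% ± 0.960 in Iadel (adjusted exact permutation p = 0.868). No mm9 annotation was used here, so the gene at the site is not named. The read below shows 1 such join of Iadel, with 40 bait bases, 12 inserted bases in capitals and the prey at chr14:32427222-32427281 (plus strand).
Chromosome 14 join: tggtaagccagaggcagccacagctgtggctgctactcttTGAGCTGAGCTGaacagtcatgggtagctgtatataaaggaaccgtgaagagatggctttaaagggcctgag
Of the 33 insertions of at least 8 bases in that bin, 31 held an AGCT (93.9%, 95% Wilson interval 80.4 to 98.3). On other chromosomes outside the bin, 114 of 752 did (15.2%, 12.8 to 17.9), and in μ 183 of 333 (55.0%, 49.6 to 60.2). This count was chosen after the reads were seen and is a description.

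The bin of chromosome 2 from 98500000 held 10 junctions in NCdel and 42 in Iadel, or 0.210% ± 0.226 and 0.444% ± 0.169 of the joins to other chromosomes (adjusted exact permutation p = 0.134). It was called without NCdel library 1, at 0.312 percentage points. With at least 20 junctions these 2 bins alone were tested, and 0 (0.0%) were called by the exact permutation test, with 0 under 0.05 unadjusted. Next came the bin of chromosome 19 from 35300000, with 16 junctions, and 6 bins with 11 each. These were on chromosome 11 from 3000000 and from 16100000, chromosome 14 from 115400000, chromosome 16 from 95000000, chromosome 17 from 47300000 and chromosome X from 131700000. The chromosome X bin held 0 junctions in NCdel and 11 in Iadel, from 5 libraries, all on the plus strand. In the chromosome 19 bin all 16 prey, and in the second chromosome 11 bin all 11, held at least 3 AGCT motifs, a minimum chosen after the reads were seen. So did 10 of 11 in the chromosome 16 bin and 9 of 11 in the chromosome 17 bin, and 1, 0 and 0 of 11 in the first chromosome 11 bin and those of chromosomes 14 and X. Over all joins to other chromosomes, prey with at least 3 AGCT numbered 228 in NCdel (5.55% ± 1.06) and 466 in Iadel (4.66% ± 0.605), on 19 chromosomes in each group. Insertions were found in 25.9% of these in NCdel and 17.8% in Iadel, against 8.72% and 7.67% of the rest. The minimum of 3 AGCT was not adjusted for prey length. Over all junctions, median prey length per library was 111 to 121 bases in NCdel and 103 to 107 in Iadel.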

How the data were processed

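The authors deposited a junction table for each of the CSR-HTGTS-seq libraries, made from genomic DNA, with 1 line per junction. Per the submitters' processing notes, Bowtie2 (version not stated) and the mm9 build were used, and the filter settings are not given in the sources used here. The deposited values other than names and letters are positions and lengths in bases, not counts, and no normalisation was applied. The members and lists were chosen with earlier results of these data known.

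No mm9 annotation was used here. Switch regions were placed by AGCT density in prey reads (at least 1 motif per 100 bases in a 1-kb bin with 1000 bases or more read, neighbours within 3 kb merged) and named by constant gene order. The blocks from μ to γ2a came from the 12 libraries compared, those of ε and α from all 21 of the series. Shares were counted over regions wider than these blocks. Neighbouring regions met midway between their blocks, except that the stretch filled the gap between the Sγ2a and Sε blocks. The μ region began at the bait, and the α region ended 5 kb beyond its block. In the 4 Iadel libraries with at least 5 γ1 junctions, 59.7% ± 11.0 of these lay in the block. No NCdel library held as many, and the block counts of NCdel are given above. IgH is the window that begins 20 kb before the bait and ends 250 kb beyond it.

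Group means over libraries were compared with the exact permutation test, two-sided (924 splits, smallest p 0.00216), with Benjamini-Hochberg adjustment within each kind of result and a threshold of 0.05. Junction counts per 1-kb bin were tested with limma 3.58.1 in R 4.3.3 on log2((n + 0.5)/(total + 1) × 1000), for bins with at least 10 junctions. Orientation and position needed at least 5 junctions per library. Scripts ran in Python 3.11.15 with scipy 1.17.1, and tests were checked on simulated data. Junctions that repeat another in prey position, strand and bait end were kept and amount to 0.380% to 1.36% per library. Median prey length was 111 to 121 bases in NCdel and 103 to 107 in Iadel. Named were all IgH regions, the 10 called bins with the largest change and the 5 fullest 100-kb bins, with all bins tied for the last place. Alternatives left out each library, used the shared run, counted repeats once, restored the dropped reads, and changed denominators, minimums, classes and bin width.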

Additional observations from a re-analysis of the deposited data

Results flagged for a closer look

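Of 121 sets of 6 values checked (1 measure in 1 group each), 11 (9.09%) had a library that stood apart from the other 5 by the gap to its nearest neighbour relative to the range. About 1 in 20 sets does so by chance, and the sets share libraries and denominators. In the regions, Iadel library 5 had 0.284% of its junctions in ε, against 0.0291% to 0.114% in the others, and Iadel library 3 had 0.357% in α, against 0% to 0.114%. Iadel library 3 holds 11 of the 17 α junctions of its group. The γ2b joins of Iadel library 2 were 91.9% deletional, against 97.1% to 100%. In NCdel library 5, 98.1% of the α joins lay in the Sα block, against 98.8% to 99.1%. The median bait end of joins to other chromosomes was base 57 in NCdel library 1 and base 56 in Iadel library 4, against base 55 in all the others.

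Among the joins to other chromosomes, chromosome 9 took 3.13% in NCdel library 5, against 4.68% to 5.51% in the others. Chromosome 14 took 9.62% in NCdel library 6, against 6.34% to 6.90%, and chromosome X took 3.97% there, against 1.70% to 2.28%. Chromosome Y took 0.131% in NCdel library 3 and 0.222% in Iadel library 5, and 0% in all the others.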

How the results depend on the processing

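Differences are Iadel minus NCdel in percentage points unless stated. Leaving out 1 library moved α between -45.0 and -41.3, γ3 between 6.57 and 7.78, γ2b between 1.71 and 2.04, γ2a between 0.828 and 1.02, the γ1 part of the other acceptors between -20.8 and -15.4, γ3 orientation between 13.9 and 24.6 and the share of other chromosomes between 25.5 and 30.8, with every call of these kept. The γ3 part lay between 12.8 and 21.8 and lost its call as given above. The number called lay between 1 and 2 for orientation, 1 and 2 for position, 0 and 1 for recurrent bins and 21 and 24 for 1-kb bins. Replicate numbers did not pair the libraries: 2 of 6 same-numbered pairs had r over 0.1 (-0.285 to 0.370), and 2 of 6 libraries correlated best with their own number. With a replicate block, tested by sign flips whose smallest p is 0.03125, no region, orientation, mix or position difference remained called (0 in each). The differences were γ3 7.22, γ2b 1.86, γ2a 0.957, α -43.1, the γ3 part 17.9, the γ1 part -18.4 and γ3 orientation 20.7. The γ3, γ2b, γ2a and α shares and the γ1 part had this smallest sign-flip p, which the adjustment raised to 0.0781. γ3 orientation, with values in 4 NCdel libraries, had a sign-flip p of 0.125. So few flips cannot decide whether these differences hold, and no conclusion is drawn from this block. Only in run 490, where no p under 0.1 is possible, 0 were called by the exact test, and the γ3 part differed by 24.7, the γ1 part by -19.9, γ3 by 9.97, γ2b by 2.43, γ2a by 1.22, α by -40.4 and other chromosomes by 11.6. γ3 orientation was not tested there. As percent of the junctions outside the acceptors, other chromosomes differed by 9.39, and within run 490 the order of the groups was reversed. As percent of all junctions, 18 single chromosomes and 2 recurrent bins were called, and the sign turned for chromosomes 3 (1.27), 4 (1.29, not called), 5 (1.45), 8 (1.22), 10 (1.39), 11 (1.49), 19 (0.765) and X (0.733). This denominator includes the acceptor joins. With at least 10 junctions per library, orientation had 0 calls, and without bait bases 31 to 35 it had 2. With 2-kb bins 15 were called of 24, since fewer were tested. Junctions upstream of the bait all lie within 10 kb, so leaving out that distance gave them no value. Libraries of 1315 junctions allow a share of up to 0.228% where a region holds 0.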
